A study of Mus musculus with 2 samples.

Results

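The genes described here encode enzymes and binding proteins that act on chromatin, and the histones themselves. They were taken from the deposited table by symbol alone. A row was a member when its symbol began with Kdm, Kmt, Kat, Hdac, Sirt, Chd, Brd, Phf, Cbx, Prdm, Arid, Ing or Mbd followed by a digit, or with Smarc, Setd, Hist1h, Hist2h, Hist3h, Hist4h or H2af. This gave 45 of the 8139 rows, 30 chromatin regulators and 15 histone genes. GENCODE mouse release 21 annotates 236 protein-coding genes with such symbols, so 18.8% of the regulators and 19.7% of the histone genes were listed, and the others were not analysed here.

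RNA was sequenced from mast cells grown out of the femoral bone marrow of C57BL/6 mice, with 1 library from Tet2-/- cells and 1 library from wild type (WT) cells. Both cultures received interleukin-3 at 10 ng/ml and stem cell factor at 5 ng/ml in medium with 10% serum for 4 to 6 weeks, and both had a purity above 97.5% by surface staining of FcεRI, the IgE receptor, together with c-Kit. The labels do not describe how Tet2 was disrupted, nor the sex, age or number of the mice behind each library. The values are RPKM, read counts scaled by the length of the gene model and the size of the library. Libraries were built with the TruSeq RNA kit, which as background selects poly(A) RNA and does not mark strand, although the labels state neither step. Steps between the lowest RPKM values correspond to 31900000 fragments in the Tet2-/- library and 30900000 in the WT library.

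Each genotype is represented by a single library, so differences could not be set against replicate spread and were not tested. Fold changes are log2 of RPKM + 1, Tet2-/- over WT, a scale that understates the change of weakly expressed genes. Ratios are of the RPKM values. The bracketed 95% intervals are exact Clopper-Pearson intervals of counting error alone. Tet2 itself was not among the symbols listed, which leaves the knockout unchecked at the RNA level. In a bulk library, fewer cells of a type and less RNA per cell cannot be told apart. Of the mast cell markers fixed for this work, 7 of 21 were listed, with summed levels of 3709 RPKM in Tet2-/- and 3461 RPKM in WT, most of it from Gzmb. Single genes of this list differed in both directions. The ratio was 2.91 for Mcpt8 and 2.52 for Smpx, both past 2-fold. It was 0.736 for Fcer1g and 0.859 for Slc18a2, with intervals below 1. Mcpt8 is better known as a basophil gene, and no list of basophil markers was fixed. Kit, Fcer1a and Ms4a2 were not listed. All 6 listed macrophage and monocyte markers were higher in Tet2-/-, with intervals above 1, and summed to 23.8 RPKM there and 1.06 RPKM in WT. Most of the Tet2-/- sum came from Ly6c2, at 18.8 RPKM in Tet2-/- and 0.479 RPKM in WT. Only Ly6c2 among them had a mean of at least 1 RPKM. The 3 listed neutrophil markers summed to 10.1 RPKM in Tet2-/- and 1.12 RPKM in WT, with Csf3r at 0.01 in both. Most of the neutrophil sum in Tet2-/- came from Ly6g, at 9.61 RPKM, for which no fragments were estimated. The 2 listed eosinophil markers summed to 2.27 RPKM in Tet2-/- and 0.829 RPKM in WT. The part of these cells in the results below was not tested.

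Chromatin regulators write, erase and read chemical marks on histone tails or move nucleosomes along DNA with the energy of ATP. Acetylation of lysines loosens chromatin and is removed by histone deacetylases and sirtuins, while methylation of lysines marks active or silent chromatin according to the residue. Tet2 oxidises 5-methylcytosine, a mark on DNA and not on histones. Histone mRNAs are of 2 kinds. Those of the replication-dependent genes, most of them in clusters, are made in S phase and end in a conserved stem-loop in place of a poly(A) tail. Those of replacement variants such as H2A.Z are made throughout the cell cycle, are spliced and carry a poly(A) tail.

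The stem-loops are shown because this element is where the mRNA of replication-dependent histone genes is known to end when it has no poly(A) tail. The annotation does not show for each member which end was used in these cells. Of the 15 histone members, 10 had the conserved 16-base stem-loop in an annotated transcript. In capitals is the stem-loop, and in lower case are up to 5 bases on each side, all within annotated 3′ UTRs of GENCODE release 21 on mm10:
Hist2h2aa2, chr3:96239779-96239804, minus strand: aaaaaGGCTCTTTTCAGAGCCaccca
Hist1h2ac, chr13:23683472-23683497, minus strand: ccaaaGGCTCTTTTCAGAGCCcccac
Hist1h2bb, chr13:23747198-23747223, plus strand: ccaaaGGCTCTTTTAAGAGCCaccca
Hist1h4n, chr13:21831793-21831818, minus strand: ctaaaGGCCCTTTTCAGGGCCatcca
Hist1h4j, chr13:21735432-21735457, plus strand: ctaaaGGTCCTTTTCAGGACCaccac
The members held 4 distinct stem-loops. The one of Hist2h2aa2 and Hist1h2ac was also that of Hist1h2ap, Hist1h2bp and Hist2h2aa1. Hist1h2bk shared the one of Hist1h2bb, and Hist1h4m that of Hist1h4n. The poly(A) signal AATAAA stood in the last 35 bases of a transcript in 4 members, H2afv, Hist1h2bp, Hist1h2br and Hist1h4j, of which Hist1h2bp and Hist1h4j had both features. Neither was found in the annotated transcripts of Hist1h1b, Hist1h2aa and Hist1h2af. The transcript of Hist1h2ac ran on for 2010 bases after its stem-loop.

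Most of the regulators were expressed at similar levels in both libraries, and none was past 2-fold or 1.5-fold in either direction. Of the 30 regulators, 26 had a mean of at least 1 RPKM, the minimum used for counting. All 26 lay within 1.5-fold. Across the 2107 rows past the same minimum, 2.90% were higher and 1.61% lower by 2-fold or more, 5.84% were higher and 3.61% lower by 1.5-fold or more, and 90.6% lay within 1.5-fold. Among the 1474 protein-coding genes at a mean of at least 5 RPKM, 95.2% lay within 1.5-fold, so the share among the regulators is near that of comparable genes. The regulators' log2 folds ran from -0.38 to 0.43, with a median of -0.07, against a median of 0.01 over all rows. The value was higher in Tet2-/- for 8 of the 26 regulators, or 30.8%, and lower for 18, where 52.0% of all rows were higher. The counting interval lay above 1 for 5 regulators and below 1 for 12. Over the 1925 rows with an interval, 27.0% lay above 1 and 23.5% below.

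**Figure D1:**
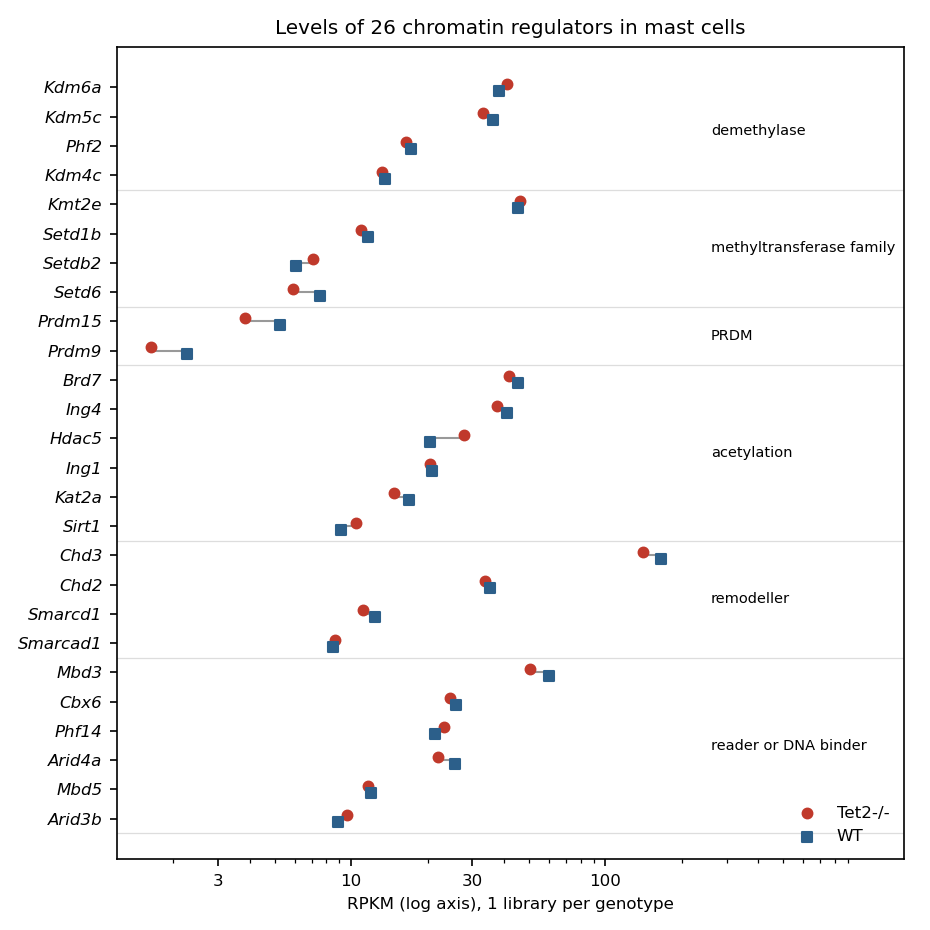
RPKM on a log axis of the 26 chromatin regulators with a mean of at least 1 RPKM, grouped by role, with circles for the Tet2-/- library and squares for the WT library (1 library each). The pairs of points lie close together, from Prdm9 at 1.63 and 2.27 RPKM to Chd3 at 140 and 165 RPKM.

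**Figure D2:**
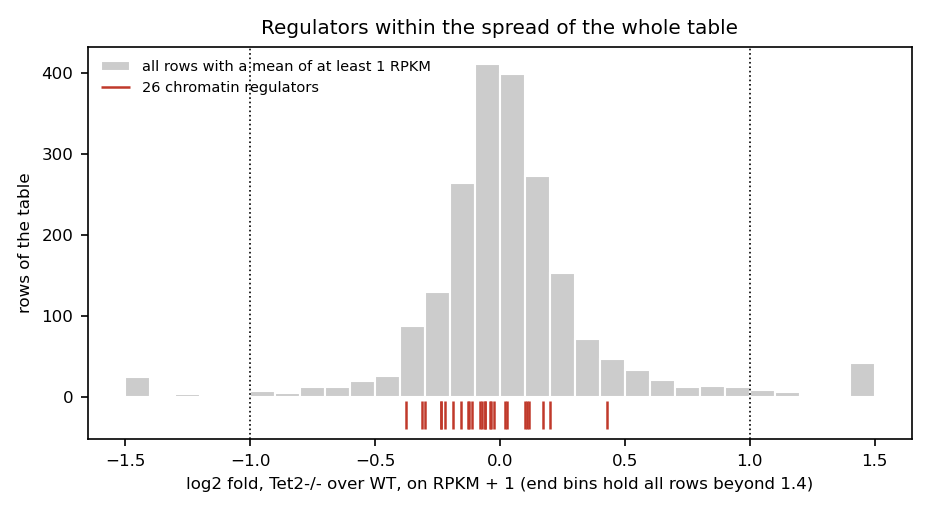
Histogram of the log2 fold, Tet2-/- over WT on RPKM + 1, of 2107 rows, with a tick below the axis for each of the 26 regulators; dotted lines mark 2-fold. All ticks fall between -0.38 and 0.43, inside both lines.

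Histone demethylases remove methyl groups from lysines. Kdm6a, which acts on the repressive mark H3K27me3, was at 41.1 RPKM in Tet2-/- and 38.2 RPKM in WT, a ratio of 1.07 (1.04 to 1.11). Kdm5c, which acts on the active mark H3K4me3, was at 33.0 RPKM in Tet2-/- and 36.2 RPKM in WT, a ratio of 0.913 (0.880 to 0.947). Both genes lie on the X chromosome and are known in mouse to escape X inactivation, and their values went opposite ways. Phf2, which removes methyl groups from H3K9, was at 16.4 RPKM in Tet2-/- and 17.2 RPKM in WT. Kdm4c, another H3K9 demethylase gene, was at 13.2 RPKM in Tet2-/- and 13.6 RPKM in WT. The intervals of Phf2 and Kdm4c included 1.

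Among relatives of the lysine methyltransferases, Kmt2e was the highest, at 46.3 RPKM in Tet2-/- and 45.4 RPKM in WT, a ratio of 1.02 (0.991 to 1.05). It encodes a SET-domain protein that binds H3K4me3 and is needed for normal blood cell development in mouse. Setd1b, the catalytic subunit of an H3K4 methyltransferase complex, was at 10.97 RPKM in Tet2-/- and 11.7 RPKM in WT, a ratio of 0.942 (0.891 to 0.995). Setd6, known for methylating the NF-κB subunit RelA, was at 5.92 RPKM in Tet2-/- and 7.53 RPKM in WT, a ratio of 0.786 (0.671 to 0.921). Setdb2, which encodes an H3K9 methyltransferase induced by interferon in myeloid cells, was at 7.10 RPKM in Tet2-/- and 6.05 RPKM in WT, a ratio of 1.17 (1.003 to 1.37). Setd6 and Setdb2 thus stood on opposite sides of 1, by no more than 1.5-fold.

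The PRDM proteins combine a SET-related domain with zinc fingers. The lowest ratios of all expressed regulators were those of Prdm9 and Prdm15. Prdm15 (chromosome 16, 97791467 to 97851850, minus strand, mm10), a transcription factor gene, was at 3.82 RPKM in Tet2-/- and 5.26 RPKM in WT, a ratio of 0.726 (0.659 to 0.799). Its log2 fold of -0.38 was exceeded in size by 16.8% of all rows. Prdm9, which places meiotic recombination sites in germ cells, was at 1.63 RPKM in Tet2-/- and 2.27 RPKM in WT, a ratio of 0.720 (0.516 to 1.001). Prdm14, a gene of germ cells and pluripotent cells, was at 0.0262 RPKM in Tet2-/- and 0.0134 RPKM in WT, an estimated 2 and 1 fragments. Prdm8 stood at 0.00714 in Tet2-/- and 0.01 in WT, where 0.01 is read as the authors' stand-in for no reads.

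Of the genes of the acetylation system, Hdac5 had the ratio furthest from 1. Hdac5 (chromosome 11, 102194432 to 102230166, minus strand, mm10) encodes a class IIa deacetylase that shuttles between nucleus and cytoplasm and restrains MEF2 transcription factors. It was at 27.8 RPKM in Tet2-/- and 20.4 RPKM in WT, a ratio of 1.36 (1.29 to 1.44). Its log2 fold of 0.43 on RPKM + 1 was the largest in size of the 26 regulators on that scale, and 13.8% of all rows exceeded it. By the ratio of RPKM itself, Prdm9 and Prdm15 lay further from 1. Sirt1, an NAD-dependent deacetylase gene, was at 10.4 RPKM in Tet2-/- and 9.14 RPKM in WT, a ratio of 1.14 (1.04 to 1.248). Both listed deacetylase genes were thus higher in Tet2-/-, where 52.0% of all rows were higher. Of the annotated genes, 1 of 11 Hdac, 1 of 7 Sirt and 1 of 8 Kat genes were listed, too few to describe these families. The acetyltransferase gene Kat2a, also called Gcn5, was lower, at 14.8 RPKM in Tet2-/- and 17.0 RPKM in WT, a ratio of 0.870 (0.808 to 0.938). Ing4, a subunit of the HBO1 acetyltransferase complex, was at 37.4 RPKM in Tet2-/- and 40.8 RPKM in WT. Ing1, a subunit of the Sin3 deacetylase complex, was at 20.5 RPKM in Tet2-/- and 20.9 RPKM in WT. Brd7, which has an acetyl-lysine binding bromodomain and belongs to the PBAF remodelling complex, was at 41.9 RPKM in Tet2-/- and 45.4 RPKM in WT, a ratio of 0.923 (0.886 to 0.961). The intervals of Ing4 and Brd7 lay below 1, and that of Ing1 included 1.

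Among the 4 listed nucleosome remodellers, 3 values were lower in Tet2-/-, where 52.0% of all rows were higher. These 4 genes are too few to set the family apart from the other rows. Chd3 (chromosome 11, 69343273 to 69369406, minus strand, mm10), an ATPase of the NuRD complex, was the highest regulator, at 140 RPKM in Tet2-/- and 165 RPKM in WT. Its ratio of 0.848 (0.834 to 0.863) had the narrowest interval, as it rests on the most fragments. Chd2 was at 33.6 RPKM in Tet2-/- and 35.1 RPKM in WT, a ratio of 0.959 (0.932 to 0.986). Smarcd1, a subunit of SWI/SNF complexes, was at 11.1 RPKM in Tet2-/- and 12.5 RPKM in WT, a ratio of 0.890 (0.794 to 0.996). Smarcad1, a remodeller linked to the upkeep of silent chromatin after replication, was at 8.61 RPKM in Tet2-/- and 8.47 RPKM in WT, with an interval that included 1.

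Readers and DNA-binding subunits showed small differences in both directions. Mbd3, another NuRD subunit (chromosome 10, 80392539 to 80399550, minus strand, mm10), was at 50.7 RPKM in Tet2-/- and 59.9 RPKM in WT, a ratio of 0.847 (0.783 to 0.916). Other NuRD subunits from the list of chromatin genes without the family prefixes were closer to 1. Mta2 was at 75.4 RPKM in Tet2-/- and 74.2 RPKM in WT and Rbbp7 at 71.2 and 74.0 RPKM in that order, both with intervals that included 1. Arid4a, a subunit of a Sin3 deacetylase complex, was at 21.9 RPKM in Tet2-/- and 25.6 RPKM in WT, a ratio of 0.853 (0.814 to 0.894). Phf14, a PHD finger protein gene, was at 23.2 RPKM in Tet2-/- and 21.3 RPKM in WT, a ratio of 1.09 (1.03 to 1.15). Arid3b was at 9.67 RPKM in Tet2-/- and 8.91 RPKM in WT, the Polycomb chromodomain gene Cbx6 at 24.5 and 25.8 RPKM in that order, and Mbd5 at 11.7 and 12.02 RPKM. The intervals of these last 3 included 1. Phf11b and Mbd3l2 stood at 0.01 in both libraries.

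**Figure D3:**
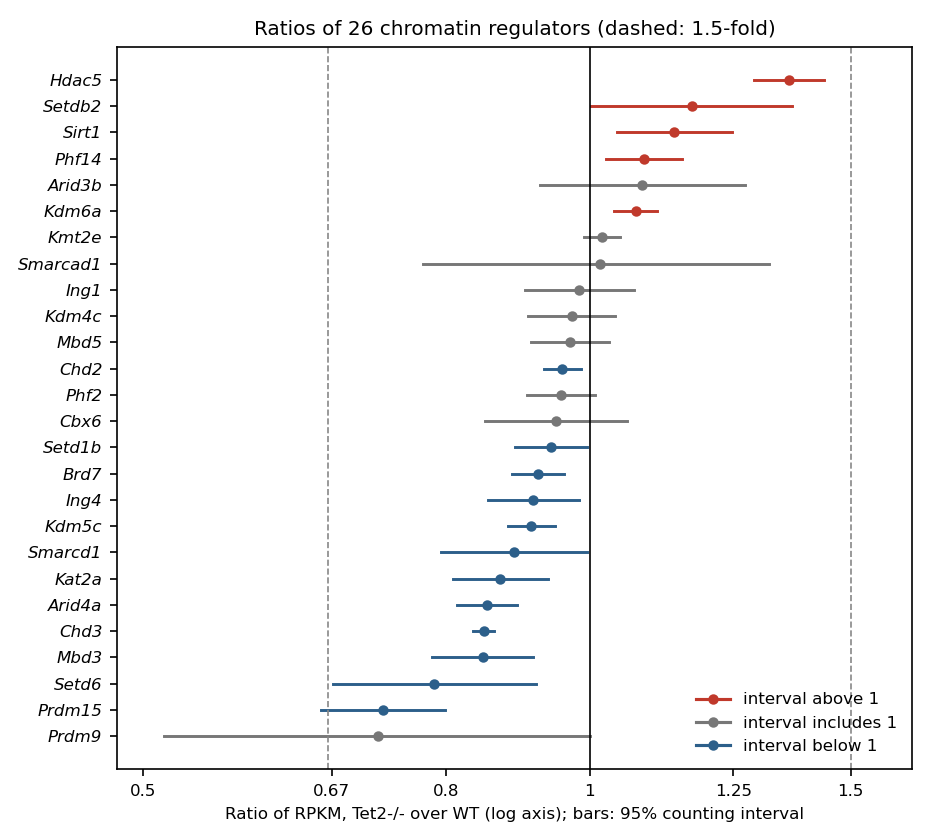
Ratio of RPKM, Tet2-/- over WT on a log axis, of 26 chromatin regulators, with bars for the 95% counting interval and dashed lines at 1.5-fold. Points run from 0.720 for Prdm9 to 1.36 for Hdac5, all between the dashed lines; bars cover counting error only, not differences between cultures.

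Annotated genes on the opposite strand overlapped 12 of the 26 regulators, among them Kmt2e with Srpk2 and Mbd5 with Orc4. The counting is not stated to use strand, so reads of overlapping genes cannot be told apart. Of the 50-base windows in its transcripts, Ing4 shared 33.5% and Chd2 shared 17.5% with other annotated genes, and their values are uncertain to that extent.

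The wider list of chromatin enzymes and complex subunits without the family prefixes also held no gene past 1.5-fold. Of its 98 genes, 16 were listed and 13 passed the minimum, with 0 past 1.5-fold in either direction and a median log2 fold of -0.01. The highest were Ehmt2, an H3K9 methyltransferase gene, at 78.04 RPKM in Tet2-/- and 78.4 RPKM in WT, followed by Mta2, Rbbp7 and Rcor1. Rcor1, a corepressor that partners the demethylase LSD1, was at 43.7 RPKM in Tet2-/- and 38.9 RPKM in WT, a ratio of 1.12 (1.07 to 1.18).

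Histone genes were described apart from the regulators, as their mRNAs without a poly(A) tail are poorly captured from poly(A) RNA. The replacement variant H2afv and the clustered genes stood at very different levels. H2afv (chromosome 11, 6427229 to 6444443, minus strand, mm10), which encodes a form of H2A.Z, was at 63.2 RPKM in Tet2-/- and 62.1 RPKM in WT, a ratio of 1.02 (0.915 to 1.13). The other 14 histone members ranged up to 7.38 RPKM in Tet2-/- and 3.14 RPKM in WT, and 12 of the 15 lie on chromosome 13 between 21735064 and 23934851. Of histone genes without the family prefixes, 3 were listed. H3f3b, which encodes the replacement histone H3.3, was at 594 RPKM in Tet2-/- and 442 RPKM in WT, a ratio of 1.34 (1.32 to 1.37). H1f0, the gene of a linker histone found in differentiated cells, was at 123 RPKM in Tet2-/- and 102 RPKM in WT, a ratio of 1.201 (1.16 to 1.24). The oocyte gene H1foo stood at 0.01 in both. Neither H3f3b nor H1f0 was past 1.5-fold.

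Clustered histone genes gave so few reads that they are best read as fragments. For the 12 with reads and an estimate, RPKM was turned into fragments by the length of the annotated transcript and the implied depth. A count of 3 fragments per library was taken as the limit of what a count of 0 allows. These 12 genes together gave 180 fragments in Tet2-/- and 81 in WT, or 99 and 46 in that order without Hist2h2aa2. The value was higher in Tet2-/- for 10 of the 13 clustered genes with reads, or 76.9%. Among 49 other protein-coding genes with transcripts of at most 1000 bases and means in the same range, 24 were higher and 25 lower. Of the 10 histone genes, 4 stood at 0.01 in WT and so had reads through Tet2-/- alone. This fixed their direction, and the count is only a description. The 8 genes with values above 0.01 in both libraries had ratios from 0.594 to 6.28, with a median of 2.16. The clustered genes share reads, so they are not separate measurements.

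**Figure D4:**
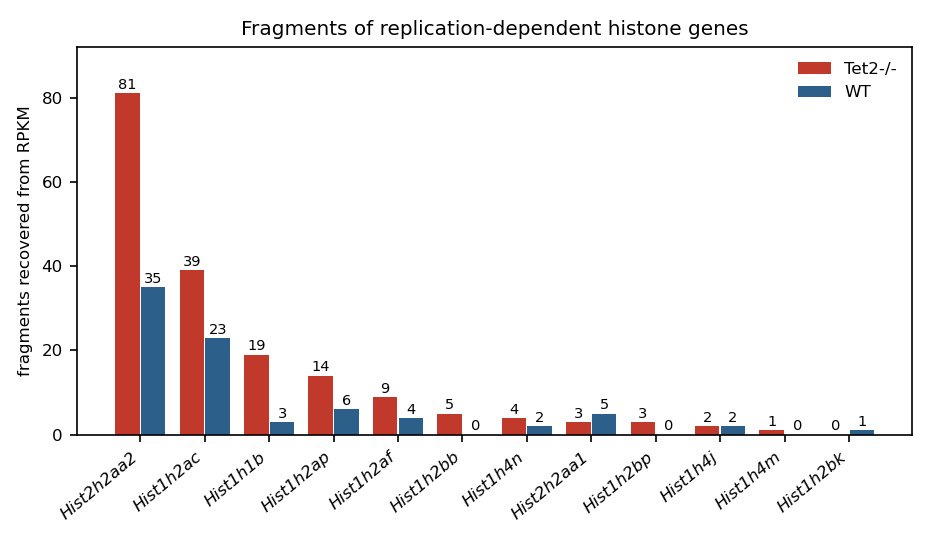
Fragments recovered from the RPKM values of 12 clustered histone genes, left bars for the Tet2-/- library and right bars for the WT library (1 library each). Hist2h2aa2 stood at 81 and 35 fragments and Hist1h1b at 19 and 3, while Hist2h2aa1 and Hist1h2bk were lower in Tet2-/-.

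Only Hist2h2aa2 passed 2-fold among the 3 histone members with a mean of at least 1 RPKM, which were Hist2h2aa2, Hist1h2ap and H2afv. Hist2h2aa2 (chromosome 3, 96239749 to 96240276, minus strand, mm10), a gene of core histone H2A, was at 7.38 RPKM in Tet2-/- and 3.14 RPKM in WT, or 81 and 35 fragments, a ratio of 2.35 (1.57 to 3.61). Its log2 fold was 1.02, just past the limit of 1. All of its 50-base windows also occur in Hist2h2aa1, a second copy of the gene nearby, and in the annotated gene Gm20634. Hist2h2aa1 was at 0.237 RPKM in Tet2-/- and 0.400 RPKM in WT, or 3 and 5 fragments, a ratio of 0.594 (0.0943 to 3.12). Reads from the shared windows of the copies cannot be told apart, so how the reads were split between them is uncertain. Annotated genes on the opposite strand overlapped 6 of the 15 histone members, and for Hist2h2aa2 these were Gm20632 and Gm47311. Gm20632 was at 1.64 RPKM in Tet2-/- and 1.39 RPKM in WT. As the counting is not stated to use strand, reads of these genes may be part of the value of Hist2h2aa2, which was not tested.

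Linker histone gene Hist1h1b (chromosome 13, 21779883 to 21780625, minus strand, mm10) had the highest ratio of the clustered genes with reads in both libraries. It was at 1.06 RPKM in Tet2-/- and 0.168 RPKM in WT, or 19 and 3 fragments, a ratio of 6.28 (1.86 to 33.4). None of its 694 windows of 50 bases occurs in another annotated gene. Its mean was below 1 RPKM, and its log2 fold of 0.82 on RPKM + 1 was under the 2-fold limit.

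Other H2A genes had values that were higher in Tet2-/- with intervals that included 1. Hist1h2ap was at 1.45 RPKM in Tet2-/- and 0.618 RPKM in WT, or 14 and 6 fragments, a ratio of 2.35 (0.865 to 7.61). It reached the mean of 1 RPKM only through its Tet2-/- value. Hist1h2af was at 1.28 RPKM in Tet2-/- and 0.560 RPKM in WT, or 9 and 4 fragments. Hist1h2ac, the member with the long annotated transcript, was at 0.529 RPKM in Tet2-/- and 0.315 RPKM in WT, or 39 and 23 fragments, a ratio of 1.68 (0.964 to 2.90). Hist1h2aa, an H2A gene of testis, stood at 0.01 in both. Of their windows, Hist1h2ap shared 93.1% with other genes, Hist1h2af 79.7% and Hist1h2ac 14.1%.

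H2B and H4 genes rested on 5 fragments or fewer per library. Hist1h2bb had 5 fragments (0.460 RPKM) in Tet2-/- and 0 in WT, at least 1.61-fold higher when 3 fragments are allowed for the 0, though the counting interval reached down to 0.937. Hist1h2bp had 3 fragments (0.325 RPKM) in Tet2-/- and 0 in WT, and Hist1h4m had 1 (0.141 RPKM) and 0 in the same order. Hist1h2bk had 0 fragments in Tet2-/- and 1 (0.105 RPKM) in WT. Hist1h4n had 4 fragments (0.501 RPKM) in Tet2-/- and 2 (0.247 RPKM) in WT, a ratio of 2.03 (0.298 to 23.0). Hist1h4j had 2 fragments in each library, and Hist1h2br was at 0.0155 RPKM in Tet2-/- and 0.01 in WT. At this depth no difference was detectable in these genes.

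RNAs from genes of DNA replication and of histone supply were set beside the histone genes, because the clustered genes are made in S phase. All 8 listed of 42 replication genes lay within 1.5-fold, with a median log2 fold of 0.01 and ratios from 0.861 to 1.14. Pcna, the replication clamp, was at 229.9 RPKM in Tet2-/- and 213.9 RPKM in WT, a ratio of 1.07 (1.04 to 1.11). Mcm2, a subunit of the replicative helicase, was at 51.2 RPKM in Tet2-/- and 49.7 RPKM in WT. Lig1 was lower, at 33.5 RPKM in Tet2-/- and 38.9 RPKM in WT, a ratio of 0.861 (0.820 to 0.903). Pold1 was at 29.6 RPKM in Tet2-/- and 29.7 RPKM in WT. Of the 8 replication genes, 4 had a higher value in Tet2-/- and 4 a lower one. Of 27 histone chaperones and histone mRNA factors, 7 were listed, 6 passed the minimum, and 0 were past 1.5-fold on the RPKM + 1 scale. Of the 7, 3 had a higher value in Tet2-/- and 4 a lower one. Supt16 was at 38.9 RPKM in Tet2-/- and 39.7 RPKM in WT, and Ubn1 at 31.0 and 30.7 RPKM in that order. Eri1, an exonuclease that trims and degrades histone mRNA, was at 23.8 RPKM in Tet2-/- and 21.99 RPKM in WT. Hira was at 20.6 RPKM in Tet2-/- and 22.7 RPKM in WT, a ratio of 0.908 (0.840 to 0.982). The remaining 2 genes of this paragraph were chosen for their role after their values were seen. Lsm11, part of the particle that cuts histone mRNA ends, was at 3.00 RPKM in Tet2-/- and 3.01 RPKM in WT. Zfp473, a processing factor, was at 0.666 RPKM in Tet2-/- and 1.09 RPKM in WT, a ratio of 0.611 (0.441 to 0.856).

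Other RNAs that lack a poly(A) tail were listed as well. Of 29 such rows, 18 stood at 0.01 or below in both libraries. Of the remaining 11 a higher value in Tet2-/- was seen for 10, where 52.0% of all rows were higher. Of these 10, 5 stood at 0.01 in WT. A row at 0.01 in 1 library has its direction fixed, so the count is only a description. The gene models of 8 of the 11 were 70 to 140 bases long, shorter than the implied length of the sequenced fragments, so their RPKM is uncertain and no fragments were estimated. Rn18s-rs5, a ribosomal RNA model, was at 636 RPKM in Tet2-/- and 106 RPKM in WT, and Rpph1, the RNA of ribonuclease P, at 2.85 and 0.212 RPKM in that order. The exception was Snora34, at 0.01 in Tet2-/- and 2.56 RPKM in WT. The part of RNA selection in the values of the histone genes was not tested.

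**Figure D5:**
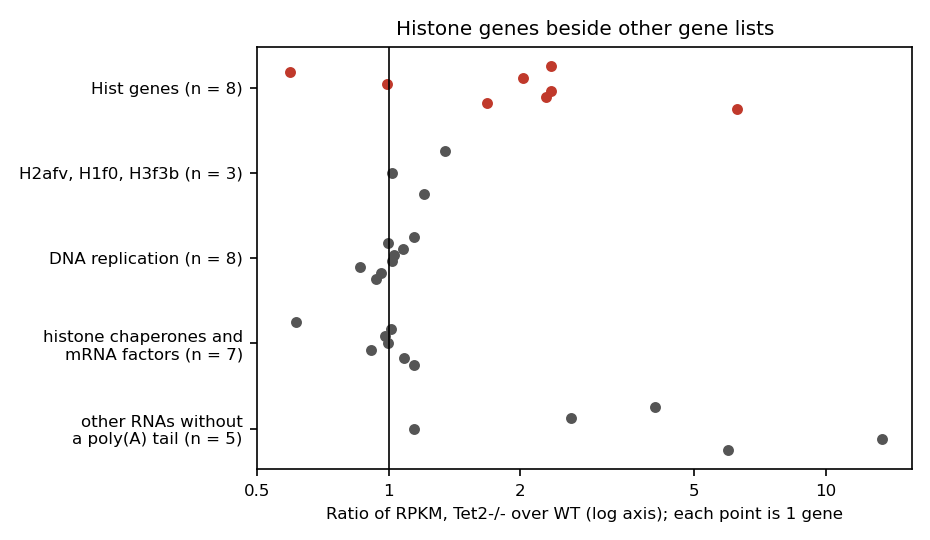
Ratio of RPKM, Tet2-/- over WT on a log axis, for genes with values above 0.01 in both libraries; each point is 1 gene of the clustered histone genes, of 3 genes of replacement or linker histones, or of 3 other lists. The 8 clustered histone genes run from 0.594 to 6.28 and the 5 other RNAs without a poly(A) tail from 1.14 to 13.5. The 8 replication genes run from 0.861 to 1.14 and the 7 histone chaperones and mRNA factors from 0.611 to 1.14. The clustered histone genes rest on 2 to 81 fragments per library and the replication genes on 84 to 9784, so their spreads are not comparable.

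Promoters of the clustered genes are shown as examples of an H1, an H2A and an H2B gene, chosen after their values and motifs were seen. The 180 bases before the RefSeq start (GRCm38.p6, the assembly of mm10) are printed for Hist1h1b, Hist1h2ac and Hist1h2bb, of which the intervals of Hist1h2ac and Hist1h2bb included 1. The promoter of Hist2h2aa2, the histone gene past 2-fold, is not printed because it overlaps an exon of Gm20632. It held 1 CCAAT match and none of the other motifs. Capitals mark, on either strand, the letters TATAAA of a TATA box, the box searched as CCAAT that binds the factor NF-Y, the octamer searched as ATGCAAAT that binds Oct-1, and the box of H1 genes searched as AAACACA:
Hist1h1b, chr13:21780626-21780805, minus strand: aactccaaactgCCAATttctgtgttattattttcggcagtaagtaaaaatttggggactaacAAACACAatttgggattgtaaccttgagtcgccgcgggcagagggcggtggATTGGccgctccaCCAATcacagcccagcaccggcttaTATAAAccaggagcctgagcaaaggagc
Hist1h2ac, chr13:23683960-23684139, minus strand: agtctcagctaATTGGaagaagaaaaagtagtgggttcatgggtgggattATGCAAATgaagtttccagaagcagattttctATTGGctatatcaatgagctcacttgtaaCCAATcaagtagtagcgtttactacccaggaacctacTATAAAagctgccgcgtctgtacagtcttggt
Hist1h2bb, chr13:23746554-23746733, plus strand: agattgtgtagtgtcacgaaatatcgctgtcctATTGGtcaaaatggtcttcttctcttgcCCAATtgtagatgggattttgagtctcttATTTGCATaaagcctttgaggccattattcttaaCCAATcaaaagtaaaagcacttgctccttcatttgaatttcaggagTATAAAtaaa
Promoters were matched for 13 clustered histone genes and 24 regulators, and the same window was searched in 32851 mouse promoters. TATAAA was in 6 of 13 clustered histone promoters, in 0 of 24 regulator promoters and in 8.94% of all promoters. Counted to the RefSeq start, its first base lay at -28 in Hist1h1b, at -32 in Hist1h2ac and Hist1h2aa, at -10 in Hist1h2bb, at -128 in Hist1h4m and at -127 in Hist1h4n. A TATA box usually lies near the distance seen in the first 3 of these genes, and the other matches lie closer or much further. CCAAT was in 10 of 13, 4 of 24 and 27.5% in the same order, and the octamer in 4 of 13, 0 of 24 and 1.21%. AAACACA was in 1 of 13, that of Hist1h1b, in 1 of 24 and in 4.33%. The motifs did not overlap each other in the printed windows. They describe the sequence and say nothing about which factors were bound in these cells.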

How the data were processed

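Per the file headers, the values that the authors deposited are RPKM, in 1 column for each of the 2 libraries. The submitters' processing notes name mm10 as build. No aligner, counter or gene annotation is named in the labels. The value 0.01 was read as the authors' substitute for no reads (57.4% of rows in Tet2-/-, 58.1% in WT), although 80 and 67 rows in that order lie below it. Members and gene lists were chosen with earlier results of these data known.

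Depth was recovered from genes with 1 annotated transcript in GENCODE release 21. RPKM times effective length times depth fell less than 0.1 from a whole number in 96.3% of the 347 genes used for Tet2-/- and 95.9% of the 316 used for WT, where chance gives 20%. These depths are inferred. Fragments of genes with several transcripts used the shortest basic transcript, which gives wider intervals. No fragments were estimated where the transcript used was shorter than 390 bases. PCR duplicates make intervals and the 3-fragment limit cover counting error only.

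Rows with a mean of at least 1 RPKM entered, and 2-fold and 1.5-fold on log2(RPKM + 1) were fixed rules of size in place of a test. The naming rule gave every histone member above 0.01, every regulator past 1.5-fold, the 12 highest and 12 lowest folds and up to 4 regulators of each family by level, and from the other lists the genes past 1.5-fold and up to 4 of the highest level. The promoter table was matched by symbol or older symbol, and members without a single match were left out. The calculation was tested on simulated data. Intervals came from scipy 1.17.1, tables from pandas 2.3.3 with numpy 2.4.6, and plots from matplotlib 3.10.9, under Python 3.11.15.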

Additional observations from a re-analysis of the deposited data

How the results depend on the processing

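The count of regulators past 2-fold was 0 higher and 0 lower under other pseudocounts, filters, scaling, a protein-coding restriction and a 1.5-fold threshold. By the counting interval, a rule added after seeing the data, 5 were higher and 12 lower. Their median log2 fold stayed between -0.08 and -0.05. The count of histone genes higher was 1 and became 2 with a pseudocount of 0.1, 0 with a pseudocount of 5 and 2 at 1.5-fold. It was 7 with no filter and a pseudocount of 0.1, also added after seeing the data. Of these 7, Hist1h2bb, Hist1h2bp and Hist1h4m had 0 fragments in WT, and Hist1h4m had only 1 in Tet2-/-. With the same pseudocount, 10 of the 49 other short protein-coding genes in the same range were higher by 2-fold and 5 lower. In the main setting, 2.90% of all rows were higher by 2-fold. No setting gave a histone gene lower by 2-fold. The histone median of 0.60 is the value of Hist1h2ap, which passed the filter only through Tet2-/-, so its range from 0.20 to 1.11 over pseudocounts says nothing about the group. Of 135 alternative values of the 45 members, 129 stayed within 1.5-fold of the main one and 6 moved, all histone genes under another pseudocount, and 0 changed sign under median-ratio scaling, which shifted log2 folds by 0.01. Below about 0.5 RPKM a histone gene rests on 5 fragments or fewer unless its transcript is long. TMM scaling needs counts and was not run. With 1 library on each side, none could be left out. No paired analysis was possible because there is only 1 replicate number.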
